A study of Mus musculus with 2 samples.

Results

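The enzymes that oxidise or reduce reactive aldehydes, alcohols and ketones were examined in sorted lung epithelial cells of mice that had breathed smoke for 3 months. The genes were chosen by name, as all rows of the deposited value table whose platform symbol begins with Aldh, Akr, Adh or Cbr followed by a digit, which gave 45 of 19505 named genes. They comprised 21 aldehyde dehydrogenases, 6 alcohol dehydrogenases (1 of them the pseudogene Adh6-ps1), 14 aldo-keto reductases and 4 carbonyl reductases. Each gene had 1 probe, as the platform identifiers are called here. Lung cells carrying the SPC/GFP reporter and the epithelial surface protein EpCAM were sorted from air-exposed control mice and from smoke-exposed mice, both after 3 months. SPC usually stands for surfactant protein C, which alveolar type 2 cells secrete. Each group was represented by 1 Clariom S Mouse array, and the sources used here do not give the strain, sex, age, number or pooling of the animals. Every difference therefore compares 2 samples, without an SD, a p-value or a replicate check, and the number of arrays limits the precision.

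Smoke carries acetaldehyde, formaldehyde and acrolein, and oxidised membrane lipids release further aldehydes inside the cell. Aldehyde dehydrogenases turn such compounds into acids, whereas aldo-keto and carbonyl reductases turn them into alcohols, and alcohol dehydrogenases interconvert alcohols and aldehydes. Several of the same enzymes also serve ordinary metabolism, including retinoic acid synthesis, folate metabolism, amino acid breakdown and steroid inactivation.

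The sorted cells carried strong alveolar type 2 signals on both arrays. Of 12 type 2 markers, 8, including Sftpc, Sftpb and Sftpa1, stood at 19.93 on both arrays, the highest value of the table, and the other 4 lay between 18.30 and 19.91. Scgb1a1, the club cell secretoglobin, also stood at that limit on both arrays. Values are log2 signals, and differences are smoke minus air. A gene counted as measured when the brighter of its 2 signals reached 4.57, the median of all probe values. Where both arrays sat at the limit, a difference could not be measured, and the gene entered neither counts nor medians.

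Most of the enzymes that could be compared differed by less than 2-fold between smoke and air. Of the 45 genes, 23 lay below the level filter on both arrays, Cbr2 stood at the limit, and 21 could be compared. Aldh3b1 alone was at least 2-fold higher in smoke, 0 of 21 were at least 2-fold lower, and 20 were within 2-fold. Among all 10419 genes compared in the same way, 3.94% were higher in smoke by this rule and 2.48% lower, so 1 of 21 (4.76%) is near the background. The median difference of the 21 enzymes was 0.14, against 0.06 for all genes compared, and the median of what genes of their own levels showed was 0.08. Of the 21, 13 (61.9%) were higher and 8 (38.1%) lower in smoke, against 54.3% and 44.7% of all genes compared. Under quantile normalization or centring by level, Aldh7a1 changed sign and the split became 12 to 9, against 48.2% higher and 51.0% lower of all genes under the former.

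**Figure D1:**
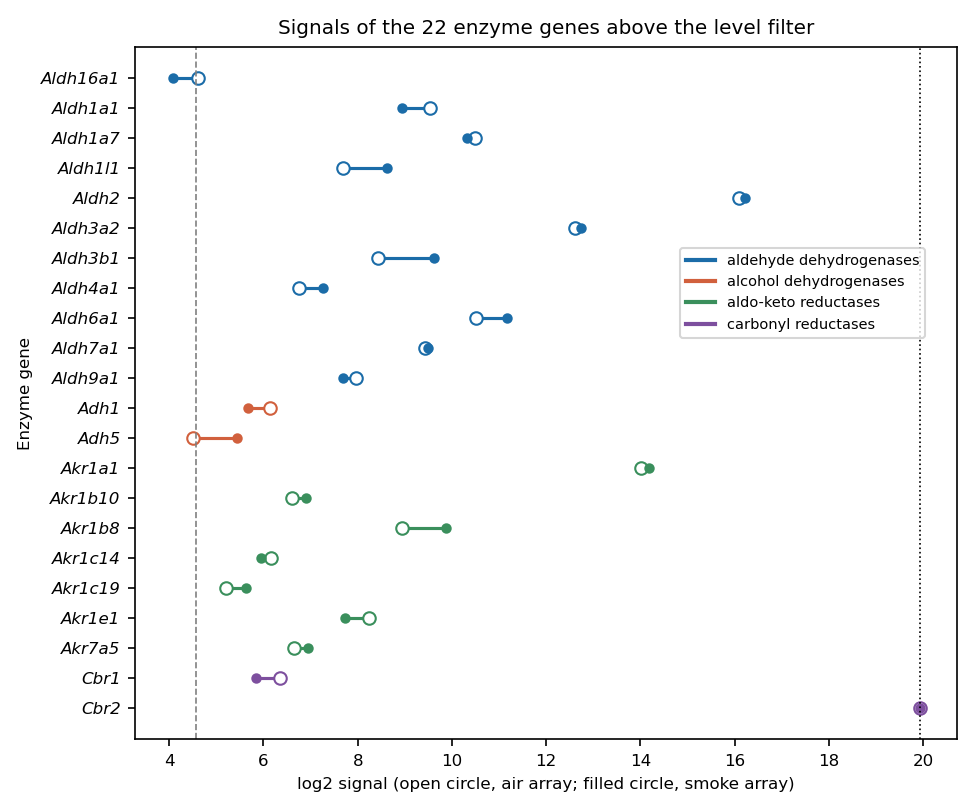
Log2 signals (x axis) of the 22 enzyme genes (y axis) that reached the level filter, with the air array as an open and the smoke array as a filled circle. The dashed line is the filter at 4.57 and the dotted line the upper limit at 19.93, where Cbr2 stands on both arrays; the longest line is that of Aldh3b1, and positions of different genes are not comparable because each probe has its own efficiency.

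With no replicates, genes of like level served to show how much 1 gene can differ. All measurable genes were split into 10 equal groups by mean signal, and the robust SD within a group (the median absolute deviation, scaled to match an SD) was between 0.30 and 0.50. This spread holds measurement error and real differences together. Among the 21 enzymes, 9 (42.9%) lay more than 1 robust SD from the median of their level group, against 33.6% of all genes compared. Aldh3b1 alone lay beyond 2 robust SDs, 4.76% of the enzymes against 7.51% of all genes. A second view came from 17 genes above the filter with several probes, none of them an enzyme described here, whose probes disagreed in their smoke-minus-air difference by a median of 0.26 and by up to 0.98.

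Among the dehydrogenases of acetaldehyde and lipid aldehydes, Aldh3b1 had the largest difference. Aldh3b1 encodes an enzyme that oxidises medium- and long-chain fatty aldehydes from lipid peroxidation. Its signal was 8.44 in air and 9.63 in smoke; the difference was 1.19 or 2.28-fold, and 1.79% of the genes of its level group had a difference as high or higher. Its robust SD was 0.46, so the difference stood 2.39 robust SDs above the group's median. Aldh3b3 and Aldh3b2, which lie near it in the RefSeq gene order, were below the filter, at 4.21 and 3.99 in air and 4.18 and 3.64 in smoke. Their differences were -0.03 and -0.35, and whether the probes separate these close paralogues was not tested.

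Aldh2, the mitochondrial enzyme that clears acetaldehyde, was at 16.09 in air and 16.23 in smoke. Aldh3a2, the fatty aldehyde dehydrogenase of the endoplasmic reticulum, was at 12.61 and 12.75. Both differences were 0.14, within the robust SD of 0.40 for genes of that level and close to that group's median of 0.08. Aldh1b1, a mitochondrial relative of Aldh2, and Aldh3a1, an enzyme abundant in the cornea, were below the filter, at 2.39 and 2.53 in air and 2.51 and 2.45 in smoke. The 3 measured enzymes of this role were all higher in smoke, as were 54.3% of all genes compared. Of the 3 enzymes only Aldh3b1 stood outside the spread of its level group.

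Of the 4 genes of the Aldh1a subfamily, only Aldh1a1 and Aldh1a7 could be compared, and neither passed 2-fold. Aldh1a1, which makes retinoic acid from retinaldehyde and oxidises many other aldehydes, was at 9.54 in air and 8.95 in smoke. This difference of -0.59, or 1.51-fold lower, was the lowest of the 21 enzymes, and 6.36% of genes of its level were as low or lower. Aldh1a7, its close relative and next gene, was at 10.48 and 10.33, a difference of -0.15. Aldh1a2 and Aldh1a3, which also make retinoic acid, were below the filter on both arrays, at 4.13 and 4.32 in air and 3.88 and 3.77 in smoke. The difference of Aldh1a7 lay within 1 robust SD of its level group. Aldh1a1 and Aldh1a7 share much of their sequence, and whether their probes separate them was not tested.

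Aldh1a1 is also expressed in airway secretory cells, and markers of those cells differed between the arrays too. Of 11 club and secretory markers, Scgb1a1 was at the limit, 4 were below the filter and 6 could be compared. Of the 6, 2 (33.3%) were higher and 4 (66.7%) lower, against 54.3% and 44.7% of all genes compared. Their median was -0.485, against 0.06. Over all 10 markers with a measurable difference, 5 were higher and 5 lower, with a median of -0.035. The markers ran from 2.58 to 19.93 in air and from 2.80 to 19.93 in smoke. Scgb3a1 was lower, at 6.85 and 5.02, while Scgb3a2 was higher, at 8.4 and 9.0. The part of such cells in the Aldh1a1 value was not tested. In a sorted sample, fewer cells of a type and less RNA per cell cannot be told apart.

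The wider retinoid pathway showed small differences. Of 29 listed enzymes, binding proteins and receptors, 3 were not analysed here, 12 were below the filter, and 14 were compared. Of these, 0 passed 2-fold, against 3.94% higher and 2.48% lower of all genes compared. In this list 4 (28.6%) were higher and 10 (71.4%) lower, against 54.3% and 44.7% of all genes. The median was -0.06, against 0.06. Lrat, which esterifies retinol for storage, had the largest difference, -0.78, from 5.96 in air to 5.18 in smoke. Rdh10, which makes retinaldehyde from retinol, was at 7.17 and 7.19.

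The remaining aldehyde dehydrogenases serve folate and amino acid metabolism and a few other routes. Of these 10 genes, 6 could be compared, with 4 (66.7%) higher and 2 (33.3%) lower in smoke, against 54.3% and 44.7% of all genes compared. Their median was 0.285, against 0.06. For these enzymes 0 were past 2-fold, against 3.94% higher and 2.48% lower of all genes. Aldh1l1, formyltetrahydrofolate dehydrogenase, which also disposes of formate carbon, was at 7.69 in air and 8.62 in smoke; the difference was 0.93 or 1.90-fold. Of genes of its level, 5.95% were as high or higher. Aldh6a1, the mitochondrial methylmalonate semialdehyde dehydrogenase of valine breakdown, was at 10.52 and 11.16, a difference of 0.64. Aldh4a1, which finishes proline breakdown in mitochondria, was at 6.76 and 7.26, a difference of 0.50 that lay within its spread.

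Aldh7a1, a lysine catabolic enzyme, was at 9.42 and 9.49, and Aldh9a1, an enzyme of carnitine synthesis, was at 7.97 and 7.68. Aldh16a1 was the gene nearest above the filter, at 4.62 in air and 4.07 in smoke. It reached the filter on the air array alone, so it entered the lower counts through the array where it was high. If both arrays had to pass, Aldh16a1 would not have been counted. Just outside the filter lay Aldh18a1 and Aldh5a1, enzymes of proline synthesis and of GABA breakdown, at 4.33 and 4.27 in air and 4.42 in smoke for both. These genes did not share a direction. Aldh1l2, the mitochondrial counterpart of Aldh1l1, was below the filter at 3.09 and 2.99, as was Aldh8a1 at 2.77 and 2.44.

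**Figure D2:**
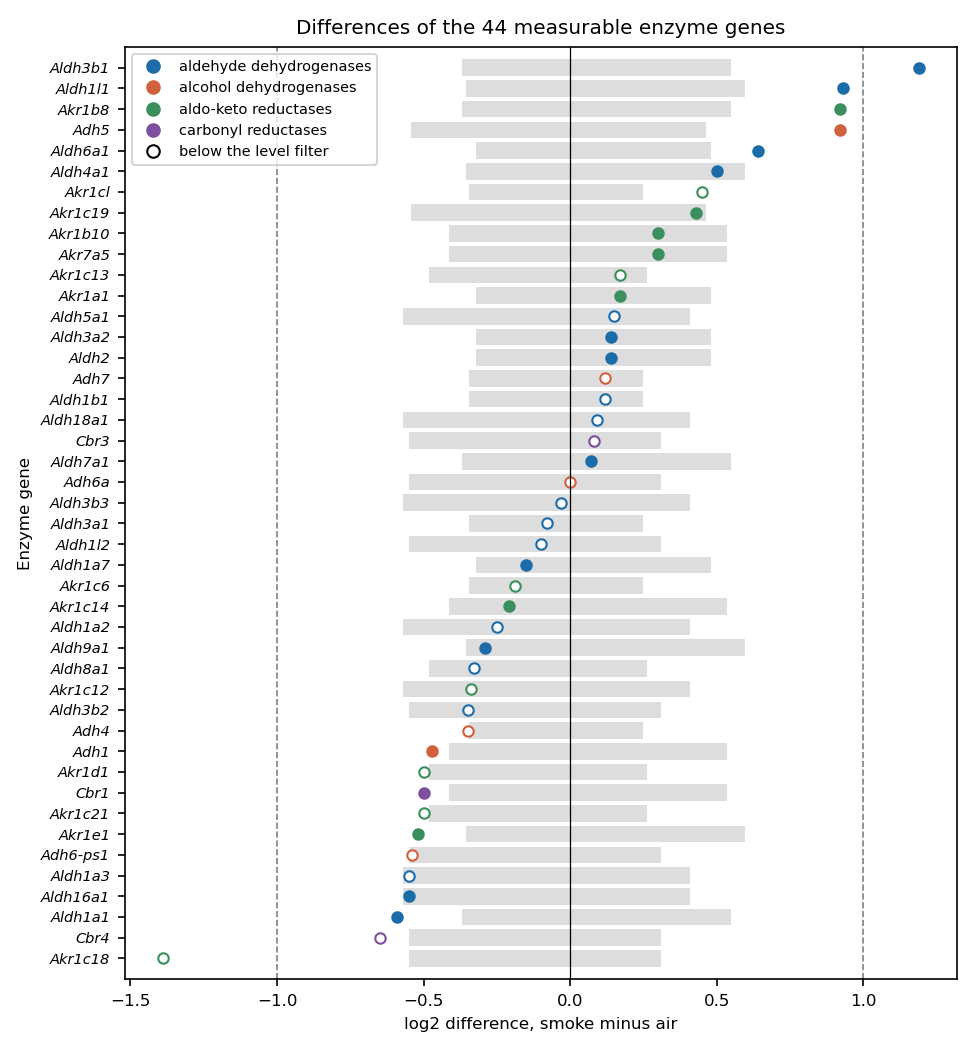
Log2 difference, smoke minus air (x axis), of the 44 enzyme genes (y axis) with a measurable difference, coloured by family, with open circles for genes below the level filter. Grey bars span the median of genes of like level plus and minus 1 robust SD, and dashed lines mark 2-fold; Aldh3b1 at 1.19 and Akr1c18 at -1.39, the latter below the filter, are the only genes past the lines.

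Alcohol dehydrogenases had low signals, and the 2 genes that could be compared went opposite ways. Adh5, the ubiquitous glutathione-dependent formaldehyde dehydrogenase that also reduces nitrosoglutathione, was at 4.51 in air, just below the filter, and 5.43 in smoke. Its difference was 0.92, and 4.78% of genes of its level were as high or higher, but it was 0.61 once an offset of 16 was added on the linear scale, so the treatment of low signals sets part of its size. Adh1, the class I enzyme that oxidises ethanol and retinol, was at 6.14 and 5.67, a difference of -0.47. Adh4, Adh6a, Adh7 and Adh6-ps1 were below the filter, at 2.32, 3.19, 2.36 and 3.56 in air and 1.97, 3.19, 2.48 and 3.02 in smoke. Adh7, Adh1, Adh6a, Adh6-ps1, Adh4 and Adh5 follow each other in the RefSeq gene order with at most 1 gene between neighbours, and only Adh5, at one end, had a smoke signal that was higher by more than 0.12.

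Of the 14 aldo-keto reductases, 7 could be compared, with 5 (71.4%) higher and 2 (28.6%) lower, against 54.3% and 44.7% of all genes compared. Their median was 0.30, against 0.06. For this family 0 were past 2-fold, against 3.94% higher and 2.48% lower of all genes. Over all 14, including those below the filter, 7 were higher and 7 lower, with a median of -0.01. Akr1b8, an aldose reductase-like enzyme that reduces lipid-derived aldehydes and retinaldehyde, was at 8.95 in air and 9.87 in smoke. This difference of 0.92, or 1.89-fold, was as high or exceeded in 4.31% of genes of its level. Its neighbour and close paralogue Akr1b10 was at 6.61 and 6.91, a difference of 0.30 that lay within its spread. Akr1b3, the aldose reductase of the polyol pathway, was not analysed here.

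Akr1a1, the general aldehyde reductase, was at 14.01 in air and 14.18 in smoke; Akr7a5, which reduces aflatoxin dialdehyde and succinic semialdehyde, was at 6.64 and 6.94. Akr1e1, a sugar-ketone reductase, was at 8.25 and 7.73, a difference of -0.52, and 10.2% of genes of its level were as low or lower. The difference of Akr1a1 was 0.17, within its spread, and Akr1e1 had the lowest difference of the family above the filter.

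The Akr1c enzymes inactivate steroid hormones and prostaglandins, and their genes, other than Akr1cl, lie close together beside Akr1e1. Only Akr1c19, at 5.20 in air and 5.63 in smoke, and Akr1c14, at 6.16 and 5.95, reached the filter. Akr1c18, the progesterone-inactivating hydroxysteroid dehydrogenase, had the lowest difference of all 45 genes, -1.39, from 4.24 in air to 2.85 in smoke. Of genes of its level, 0.769% were as low or lower. Akr1c18 lay below the filter on both arrays, and with the offset its difference was -0.59. Akr1c12, Akr1c13, Akr1c21 and Akr1c6 were at 4.19, 2.73, 3.08 and 2.23 in air and 3.85, 2.90, 2.58 and 2.04 in smoke, and Akr1cl and Akr1d1 at 2.18 and 2.97 in air and 2.63 and 2.47 in smoke. Members of this cluster are similar in sequence, so signal may be shared between them.

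Carbonyl reductases could hardly be compared. Cbr2, the carbonyl reductase that mouse lung makes in abundance, stood at 19.93 on both arrays, so no difference could be measured. It was the only 1 of the 45 genes at that limit, which 16 genes reached on both arrays. Cbr1, which reduces quinones, prostaglandins and lipid aldehydes, was at 6.34 in air and 5.84 in smoke; the difference was -0.50, and 12.8% of genes of its level were as low or lower. Its neighbour Cbr3 was below the filter at 3.55 and 3.63, as was Cbr4, a mitochondrial reductase, at 3.86 and 3.21.

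At a threshold of 1.5-fold, 5 of the 21 enzymes (23.8%) were higher in smoke, against 14.5% of all genes compared, and Aldh1a1 alone (4.76%) was lower, against 9.19%. The 5 were Aldh3b1, Aldh1l1, Akr1b8, Adh5 and Aldh6a1, from 3 of the families. Adh5, the only alcohol dehydrogenase of these, reached the filter on the smoke array alone, at 4.51 in air and 5.43 in smoke. It would not have been counted if both arrays had to pass. Under quantile normalization or centring by level, Aldh6a1 left the higher side and Akr1e1 joined the lower side, giving 4 higher and 2 lower. Of all genes compared, 12.1% were higher and 11.5% lower under the former, and 12.6% and 11.0% under the latter. With the offset Aldh1a1 left the lower side, giving 5 and 0, against 11.1% and 5.77% of all genes. At 3-fold, 0 of 21 passed in either direction, against 0.633% of genes higher and 0.336% lower. Below the filter, 15 of 23 enzymes (65.2%) were lower and 7 higher in smoke, and of all 9070 genes below it 58.6% were lower.

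**Figure D3:**
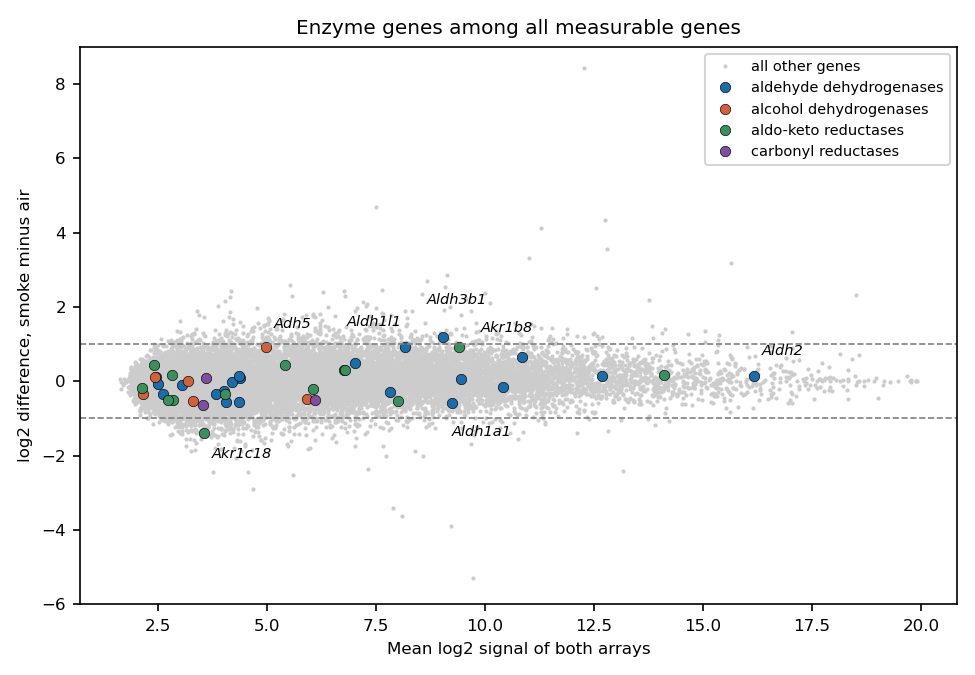
Log2 difference, smoke minus air (y axis), against the mean log2 signal of both arrays (x axis) for all 19489 measurable genes in grey and 44 enzyme genes in colour by family. Dashed lines mark 2-fold. Most enzymes lie within the body of the grey points. Aldh3b1 at 1.19 is the highest enzyme and Akr1c18 at -1.39 the lowest, and 0.769% of genes of the level of Akr1c18 were as low or lower.

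Promoter sequences were available from RefSeq (GRCm38.p6, 250 bases before to 50 after each start) for 38 of the 45 genes, in 41 windows. Those of Aldh3b1, the 1 gene past 2-fold, and of Akr1b8, the aldo-keto reductase with the highest difference, are shown for the 250 bases before the start. Capitals mark any match to 4 motifs searched on both strands, namely TGACNNNGC (core of the antioxidant response element bound by NRF2), GCGTG (core of the xenobiotic response element bound by the aryl hydrocarbon receptor), CACGTG (the E-box of clock factors) and TTATGTAA (the D-box of Dbp).
Aldh3b1, chr19:3929779-3930028, minus strand: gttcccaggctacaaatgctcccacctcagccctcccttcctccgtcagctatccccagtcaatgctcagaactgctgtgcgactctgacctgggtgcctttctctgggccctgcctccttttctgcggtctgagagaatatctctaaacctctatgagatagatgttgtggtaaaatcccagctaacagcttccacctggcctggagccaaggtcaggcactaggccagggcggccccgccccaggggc
Akr1b8, chr6:34353896-34354145, plus strand: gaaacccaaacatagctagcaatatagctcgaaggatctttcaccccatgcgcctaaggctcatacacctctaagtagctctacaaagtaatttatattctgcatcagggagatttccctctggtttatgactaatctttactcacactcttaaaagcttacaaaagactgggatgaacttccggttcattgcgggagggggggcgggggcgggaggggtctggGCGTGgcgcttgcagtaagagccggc
The Aldh3b1 stretch held 0 matches, and the Akr1b8 stretch held 1, a GCGTG that begins 26 bases before the start. The 250 bases before each start of Aldh1l1, Adh5, Aldh6a1 and Cbr2, not shown here, held 0 matches.

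Over whole windows, TGACNNNGC was found in 5 of the 41 enzyme windows (12.2%) and in 12.4% of all 32851 windows. GCGTG was found in 13 (31.7%) and in 32.4%, and CACGTG in 4 (9.76%) and in 7.15%. TTATGTAA was found in 1, that of Akr1c18, and in 0.938% of all windows. The enzyme windows thus held the 2 smoke-related motifs about as often as windows in general. A match is a description of letters and not a bound site.

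In the 4 related pathway lists together, 63 genes were compared, of which Xdh (1.59%) passed 2-fold upward in smoke and Hsd11b1 (1.59%) downward, below the 3.94% and 2.48% of all genes. Of the 63, 52.4% were higher and 44.4% lower, near the 54.3% and 44.7% of all genes. Of 27 other carbonyl-reducing and short-chain enzymes, 19 were compared, with 14 higher and 4 lower and a median of 0.17. Hsd11b1, which regenerates active glucocorticoid, was 2.07-fold lower (7.43 in air, 6.38 in smoke), and with the offset its difference was -0.92, under 2-fold. Of 21 aldehyde oxidases, glyoxalases and enzymes of acetate use, 17 were compared, with 10 higher and 6 lower and a median of 0.18. Xdh, xanthine oxidoreductase, which also oxidises aldehydes, was 2.23-fold higher (11.20 and 12.36). Of 18 NRF2 regulators and targets, 13 were compared, with 0 past 2-fold, 5 higher and 8 lower, and a median of -0.03. Osgin1, an oxidative stress-induced gene, had the largest difference of these, 0.71, and Nfe2l2, which encodes NRF2, was at 5.96 and 5.93.

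Markers of cells other than type 2 also differed between the arrays. Their counts are read against all genes compared, of which 54.3% were higher and 44.7% lower. At least 2-fold higher were 3.94% of all genes compared, and 2.48% were at least 2-fold lower. Of 11 endothelial markers compared, 9 were lower in smoke, 2 of them at least 2-fold, with a median of -0.68 and levels of 8.02 to 14.34 in air and 7.34 to 13.86 in smoke. Of 9 alveolar type 1 markers, 7 were lower, with a median of -0.23. Their levels were 5.74 to 18.41 in air and 5.53 to 18.54 in smoke, so the brightest reached the range of the type 2 markers. Of 12 macrophage markers, 3 were not analysed here, 5 were below the filter and 4 were compared. All 4 were lower, with a median of -0.19. Of these 4, Chil3, a chitinase-like macrophage protein, was 2.64-fold lower, and the other 3 differed by -0.05 to -0.23. Over all 9 macrophage markers with a measurable difference, 2 were higher and 7 lower, with a median of -0.16. Fibroblast and smooth muscle markers had 6 of 10 higher, a median of 0.09 and a mean of -0.12, with Col1a1 and Pdgfrb at least 2-fold lower, by 2.27-fold and 2-fold. Of 5 ciliated markers compared, 4 were lower, with a median of -0.31; Tppp3 was 2.71-fold lower and Cfap126 2.95-fold higher. Of 6 mesothelial markers, 3 were below the filter. Of the 3 compared, 2 were higher, with a median of 0.03, and Msln was 2.43-fold lower. Over all 6, 3 were higher and 3 lower, with a median of -0.085. The type 2 markers below the limit had a median of 0.045. Whether endothelial, macrophage or fibroblast cells passed the sort on SPC/GFP and EpCAM was not tested. Any part of them in the enzyme signals was not tested either.

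**Figure D4:**
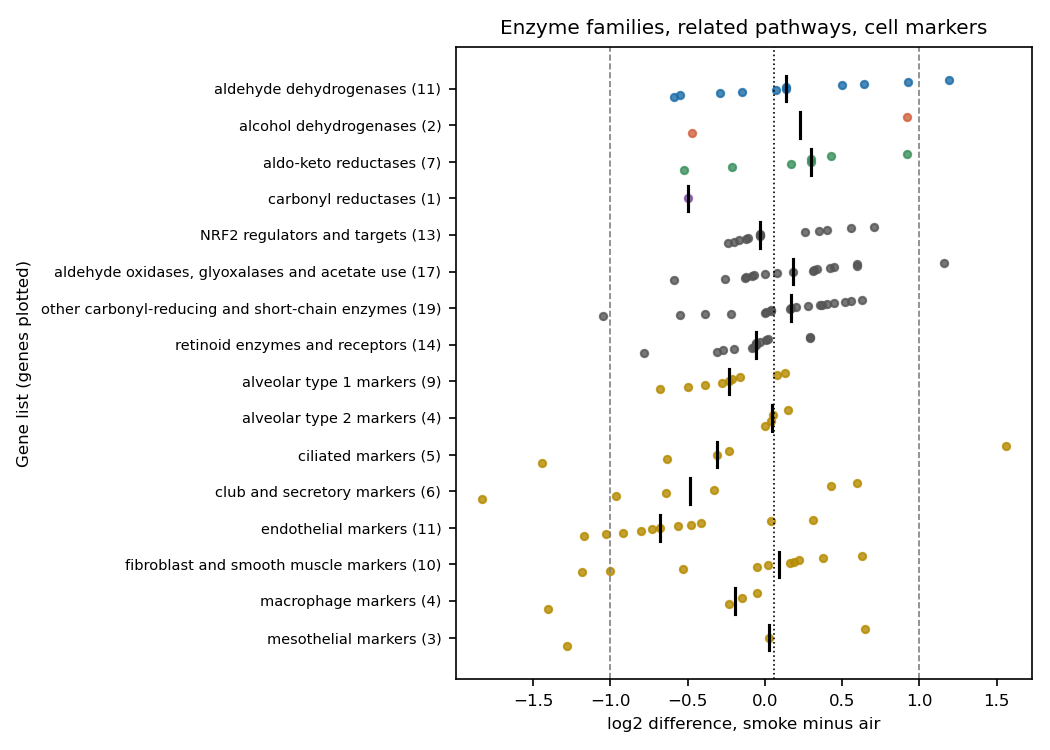
Log2 differences, smoke minus air (x axis), of single genes above the level filter (points), by enzyme family, related pathway and cell type list (y axis, number of genes in parentheses). Black bars are medians, the dotted line is the median of all genes compared at 0.06 and dashed lines mark 2-fold; the aldehyde dehydrogenase median is 0.14 and the endothelial median -0.68.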

How the data were processed

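RNA was prepared with Trizol and labelled as biotinylated cDNA for Clariom S Mouse arrays (Affymetrix), per the labels. The authors deposited 1 value per probe and array, read here as log2 signal because the 22206 values per array ran from 1.55 to 19.93; medians were 4.61 in air and 4.53 in smoke. Per the submitters' processing notes, the tool was Transcriptome Analysis Console; the sources used here give neither its settings nor the background correction, normalization or build, so scale and centring stay unstated, while the direction follows from the sample labels. An unknown algorithm can stretch or compress a fold printed here, which is 2 to the power of the log2 difference.

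Of 22206 probes, 19572 had 1 gene symbol, 0 several and 2634 none here; probes of the 55 genes with several were averaged. All 45 members matched RefSeq (GRCm38.p6, used for names and gene order) by Entrez number. With 1 array per group no test was run. Counts and medians were computed in Python 3.11.15 with numpy 2.4.6 and pandas 2.3.3. The 2-fold rule was run on simulated data whose changes were larger than that of any enzyme here. The simulation did not cover smaller differences or the enzyme medians. Alternatives were other level filters, thresholds of 1.5-fold and 3-fold, quantile normalization, centring by level and an offset of 16. Members and lists were chosen with earlier results of these data known. Every member may be named; other genes come from the lists, where they passed 2-fold or had the largest difference, and further ones (Rdh10, Nfe2l2, Scgb3a2, Scgb1a1, Sftpc, Sftpb and Sftpa1) were named after their values were seen.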

Additional observations from a re-analysis of the deposited data

How the results depend on the processing

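No paired analysis was possible because each group has 1 array, and leaving out an array leaves no comparison. The 1 enzyme at least 2-fold higher in smoke remained 1 under no level filter, both other filters, quantile normalization, centring by level and the offset. It was 1 of 44 without the filter, 1 of 12 at the 75th percentile, 1 of 20 with the filter on the mean of both arrays, and 1 of 21 otherwise. Of all genes, 467 of 19489 were at least 2-fold higher without the filter and 368 of 9913 with the filter on the mean. Under quantile normalization they were 359 of 10401, and under centring 363 of 10419. At 1.5-fold, 5 enzymes were higher and 1 lower, against 14.5% and 9.19% of all genes compared. At 3-fold 0 were higher, against 0.633%. Without the level filter 1 of 44 enzymes, Akr1c18, was at least 2-fold lower, as were 407 of all 19489 genes. The median difference was then -0.055 over the 44 enzymes, against -0.02 for all genes. The low-signal genes added in this way were mostly lower. Under quantile normalization the median over the enzymes was 0.07 and that of all genes -0.01, and under centring by level they were 0.06 and 0. With the filter at the 75th percentile, 7.60, 212 of 5258 genes were at least 2-fold higher and 74 lower. With the offset of 16, these counts were 244 and 102 of 10419 genes. Of the same 10419 genes without the offset, 1514 and 958 passed 1.5-fold, and 66 and 35 passed 3-fold. The differences of the 21 enzymes under quantile normalization, centring and the offset gave 63 values. All 63 moved by less than the spread of genes of like level. Under centring this was fixed in advance, since level-group medians lay between -0.12 and 0.12 and spreads between 0.30 and 0.50. The offset hardly moves bright genes, so little follows from this check. Of the 63 values, 2 changed sign, both of Aldh7a1, from 0.07 to -0.06 under quantile normalization and -0.02 under centring. Counts at 1.5-fold under these alternatives were added after seeing the data: 4 higher and 2 lower under quantile normalization and under centring, and 5 and 0 with the offset. All genes compared had 12.1% higher and 11.5% lower under quantile normalization, 12.6% and 11.0% under centring, and 11.1% and 5.77% with the offset. Arrays at the upper limit cannot show a difference, which affects Cbr2, and values near the filter hold least: with the offset Adh5 was at 0.61 and Aldh16a1 at -0.31.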
